A study of Mus musculus with 10 samples.

Results

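The regions described are 1930 of the 26230 windows (7.36%) that the authors called as open chromatin in untreated MC3T3-E1 cells and that had no counterpart in any of 3 lists from treated cells. A window is a short stretch of fixed length around a peak of tags. It was taken when no window of the TNFa list, the BMP4 list or the list of both factors on the same chromosome had a start within 500 bp of its own. The measurement was ATAC-seq, in which a transposase cuts accessible DNA and the ends of the fragments are counted as tags. MC3T3-E1 is an established mouse osteoblast line. Each group had 2 libraries, and all were labelled as 1 batch. All treated and untreated cells had been kept in 2.5% FBS (fetal bovine serum) for 30 min. Untreated cells then received no factor. TNFa was given at 10 ng/ml and BMP4 at 10 ng/ml, alone or together, with 3 h in the sample labels for both. The treatment protocol instead has 30 min of TNFa before BMP4 is added, so the length of the TNFa exposure is uncertain. The titles of the libraries with TNFa alone carry p65, which the labels leave unexplained. Another 2 libraries of sonicated MC3T3-E1 DNA served as background.

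Open chromatin marks DNA from which nucleosomes have been displaced, chiefly at promoters, where transcription starts, and at enhancers, which lie in introns and between genes and tend to be more specific to a cell type and its state. In osteoblasts, BMP4 signals through SMAD proteins to genes such as Runx2 and the Dlx homeobox genes, and TNFa acts largely through NF-kB and AP-1. Loss of accessibility at an enhancer after a stimulus is a known mode of gene regulation. The lists record only windows that passed a threshold against background.

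The windows were chosen by the tag counts behind the authors' calls, the adjusted p of cells over background in each list, so their level and their excess over background are described without a test. Total tags (M) were 30.1 and 29.1 in the untreated libraries and 49.5 and 55.9 in the background. The libraries given TNFa had 16.5 and 19.7, those given BMP4 26.05 and 27.92, and those given the 2 factors 21.8 and 18.8. The untreated libraries were thus the deepest of the cell libraries, and the part of depth in the choice of windows was not tested. The untreated list held a promoter window for 7 of 14 osteoblast markers (Runx2, Col1a1, Col1a2, Bglap, Dlx5, Cdh11 and Twist1) and a window of some kind for 13 of 14. It held a promoter window for 0 of 9 haematopoietic or myeloid and 0 of 9 muscle or endothelial markers, and for 3 of 7 chondrocyte, 1 of 6 adipocyte and 2 of 5 neuronal markers. A window of some kind was held for 6 of 7 chondrocyte, 3 of 6 adipocyte and 3 of 5 neuronal markers. For muscle or endothelial markers it was 3 of 9, and for haematopoietic or myeloid markers 1 of 9. No marker promoter was among the 1930 windows. The labels do not say whether the 2 libraries of a group came from separate cultures, so the spread between them may be technical. In a bulk library a lower tag count in a window can come from fewer cells with that window open or from less opening per cell, and these cannot be told apart.

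The promoter windows among these regions are shown first as sequence, because promoters were the annotation in which the regions differed most, in percentage points, from the other untreated windows. Those 6 of the 10 strongest promoter windows that RefSeq's promoter table covers (build GRCm38.p6, which is mm10) are followed by those of Adamts1 and Ogn, which act in the matrix. The promoter windows of Col6a3, also a matrix gene, and Tfrc were covered at least in part. They are not printed and held none of the motifs searched. Sequences are given 5′ to 3′ on the strand of the gene, and none runs past the start site. Capitals mark matches to the searched motifs on either strand: GGGCGG (SP1/KLF), GGCGCC (a GC-rich SMAD element), CACGTG (E-box), CCGGAAG (ETS), CCAAT (NF-Y), TGTGGT (RUNX) and GGAATG (TEAD). The Taok1 window is chr11:77607898-77608022, minus strand, and holds none of these. The others are Crtc1 (chr8:70439626-70439750, minus), Rcor2 (chr19:7267260-7267384, plus), Gprin3 (chr6:59426327-59426451, minus), Ephb6 (chr6:41605344-41605468, plus), the first 95 bases of the Snrnp25 window (chr11:32205320-32205414, plus), Adamts1 (chr16:85803149-85803273, minus) and Ogn (chr13:49607842-49607966, plus).
Taok1: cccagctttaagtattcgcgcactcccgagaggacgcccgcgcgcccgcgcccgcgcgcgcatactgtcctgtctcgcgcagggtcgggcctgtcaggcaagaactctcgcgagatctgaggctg
Crtc1: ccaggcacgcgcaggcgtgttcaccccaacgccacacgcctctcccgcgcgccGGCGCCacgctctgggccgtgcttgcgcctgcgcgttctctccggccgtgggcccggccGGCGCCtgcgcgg
Rcor2: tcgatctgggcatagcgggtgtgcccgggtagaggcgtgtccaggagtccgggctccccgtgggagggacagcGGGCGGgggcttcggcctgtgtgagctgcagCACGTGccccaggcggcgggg
Gprin3: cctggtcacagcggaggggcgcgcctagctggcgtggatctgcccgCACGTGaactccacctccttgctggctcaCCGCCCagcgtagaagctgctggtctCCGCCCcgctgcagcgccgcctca
Ephb6: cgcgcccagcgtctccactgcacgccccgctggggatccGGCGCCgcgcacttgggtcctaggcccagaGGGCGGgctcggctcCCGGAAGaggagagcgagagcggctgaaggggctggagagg
Snrnp25: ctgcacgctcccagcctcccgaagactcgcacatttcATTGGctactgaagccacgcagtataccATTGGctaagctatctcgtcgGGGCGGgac
Adamts1: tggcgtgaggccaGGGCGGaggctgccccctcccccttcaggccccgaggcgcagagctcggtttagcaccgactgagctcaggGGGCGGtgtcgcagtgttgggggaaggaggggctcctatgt
Ogn: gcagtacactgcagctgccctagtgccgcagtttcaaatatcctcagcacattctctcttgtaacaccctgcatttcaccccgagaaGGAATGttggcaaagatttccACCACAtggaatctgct

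The GC content was 68% at Taok1, 79.2% at Crtc1, 73.6% at Rcor2, 70.4% at Gprin3, 74.4% at Ephb6, 57.9% at Snrnp25 and 69.6% at Adamts1. Ogn had the lowest, 48.8%, and it alone of the 8 printed windows held the RUNX and TEAD words. Ogn encodes osteoglycin, a small leucine-rich proteoglycan of bone matrix, and RUNX is the family of the osteoblast regulator Runx2. Of the 243 promoter windows among the regions, 168 fell in the RefSeq promoter table, whose entries run from 250 bases before to 50 after a start. Their promoters had a median GC content of 61.3%, against 62% in 5736 promoters of the other untreated windows and 52.7% in all 32851 promoters of the table.

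Motif words were counted on both strands in those 300 base promoters, and a match describes letters only. GGGCGG was in 63.1% of the 168 promoters, in 73% of the promoters of other untreated windows and in 35.7% of all promoters. In the same order, CCGGAAG was in 20.2%, 21.8% and 8.86%, and GGCGCC, which may share bases with GGGCGG, in 18.5%, 23.4% and 11.9%. CACGTG was in 12.5%, 11% and 7.15%. On these 4 words the 168 promoters were nearer to those of the other untreated windows than to promoters at large. TGTGGT (RUNX) was in 29 of 168 (17.3%), against 11.5% and 16.8%, and the AP-1 words TGACTCA or TGAGTCA were in 10 of 168 (5.95%), against 3.38% and 5.2%. For both, and for CCAAT (38.1%, 44.4% and 37.4%), the share lay nearer to that of all promoters. TEAD's GGAATG was in 11.3%, 11.4% and 14.7%, and the CRE word TGACGTCA in 4.76%, 4.29% and 1.79%. The NF-kB consensus was in 16 of 168 (9.52%), against 10.5% and 8.46%. The rarest were the NRF1 consensus in 5 (2.98%, against 3.84% and 1.27%), the CTCF core in 2 (1.19%, against 0.924% and 0.508%) and the SMAD palindrome GTCTAGAC in 0 of 168, against 0.227% and 0.213%.

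The regions lay away from genes' starts. Promoters made up 243 of them (12.6%), against 33.5% of the 24300 other untreated windows, while introns held 806 (41.8%, against 31%) and intergenic DNA 802 (41.6%, against 31%). The median distance to the nearest start site was 18279 bp, against 6624 bp, and 15.2% lay within 1000 bp of a start, against 38.8%. A CpG island was the detailed label of 1.55% of the regions and 3.29% of the others. Each window carries 1 such label, so windows in islands under another label are not counted. The remaining windows were 26 at gene ends, 20 in exons, 16 in 3′ UTRs, 11 in 5′ UTRs and 6 in non-coding transcripts.

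A like profile was found in the windows that the same rule picks from each other list. The TNFa list had 644 such windows (2.77% of 23288), the BMP4 list 1157 (4.72% of 24525) and the combined list 1206 (5.08% of 23745). These counts depend on the lengths of the lists. With each list held to its 23288 windows of lowest adjusted p, a setting tried for the treated lists after the data were seen, the untreated list had 1082 (4.65%), of which 923 were among the 1930, and the TNFa, BMP4 and combined lists had 917 (3.94%), 1266 (5.44%) and 1271 (5.46%). The untreated list then no longer had the largest share. With the full lists, promoters made up 16.9%, 10% and 15.8% of the TNFa, BMP4 and combined windows, against 35.5%, 32.8% and 35.4% of the matched windows of the same lists. Their median distance to a start was 12920, 22941 and 15606 bp. The untreated regions, at 12.6% and 18279 bp, thus fell between the BMP4 windows and those of the lists with TNFa. The windows found only with TNFa or with both factors lay closer to starts, with 23.3% and 23.1% within 1000 bp, than the untreated (15.2%) or BMP4 (13.3%) ones. The whole lists differed in the same direction. Of all their windows, 41.1% (TNFa) and 40.9% (both factors) lay within 1000 bp, against 37% (untreated) and 37.3% (BMP4). These are counts from pooled lists, with no replicate, and the lists were all called against the same background libraries.

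**Figure D1:**
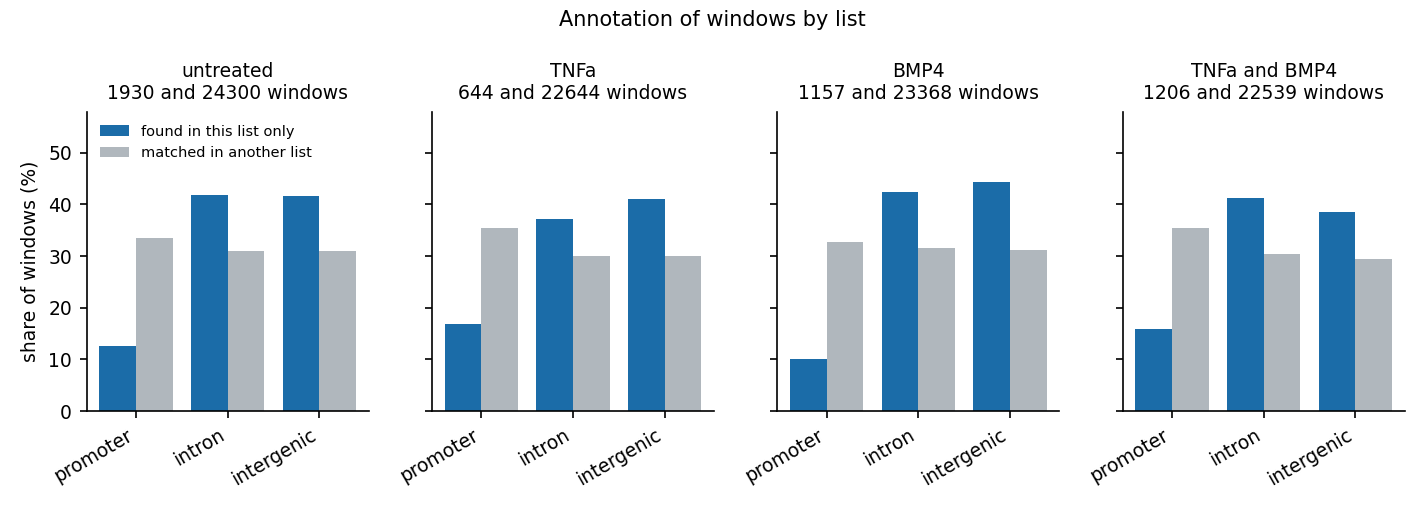
Share of windows (vertical axis, percent) annotated as promoter, intron or intergenic, for windows found in 1 list only (blue) and windows with a counterpart in another list (grey), in the untreated, TNFa, BMP4 and combined lists. In each of the 4 lists the blue promoter bar, between 10% and 16.9%, is below the grey one, between 32.8% and 35.5%.

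Loosening the rule to the lists with 1 factor gave more windows. Of the 26230 untreated windows, 4217 had no counterpart in either list with TNFa, and 2656 had none in either list with BMP4. The lists with TNFa came from the 4 shallowest libraries, and the part of depth in this difference was not tested.

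In tags the regions were low. The median window held 13 tags in untreated library 1 and 22 in library 2, which is 4.33 and 7.56 normalised tags, that is, tags scaled to a library of 10000000, while the other untreated windows had medians of 38 and 47 tags (12.6 and 16.1 normalised). In the background libraries the same windows had 5 and 6 tags (1.01 and 1.07 normalised), close to the 6 and 7 tags (1.21 and 1.25) of the others. The regions were thus below the others by a wider margin in cells than in background. All 1930 windows together took 0.101% of the tags of untreated library 1 (95% Wilson interval 0.1003 to 0.1026) and 0.181% of library 2 (0.179 to 0.182), against 0.0248% and 0.0239% of the background libraries. These intervals cover counting error only.

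The 2 untreated libraries were not equally high in the regions. The weight of each in the calls was not tested, and the shares below are not matched for level. Library 2 was the higher in 1575 of the 1930 windows (81.6%), with a median log2 ratio of library 2 to library 1 of 0.81, whereas it was the higher in 63.1% of the other untreated windows, with a median of 0.40. Among windows found only with BMP4 library 2 was the higher in 79.6%, with TNFa in 69.4% and in the combined list in 51.4%. In 99.3% of the regions the lower untreated library was above the higher background library, and in 168 (8.7%) it was above by more than 2 on the log2 scale, against 61.6% of the others.

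**Figure D2:**
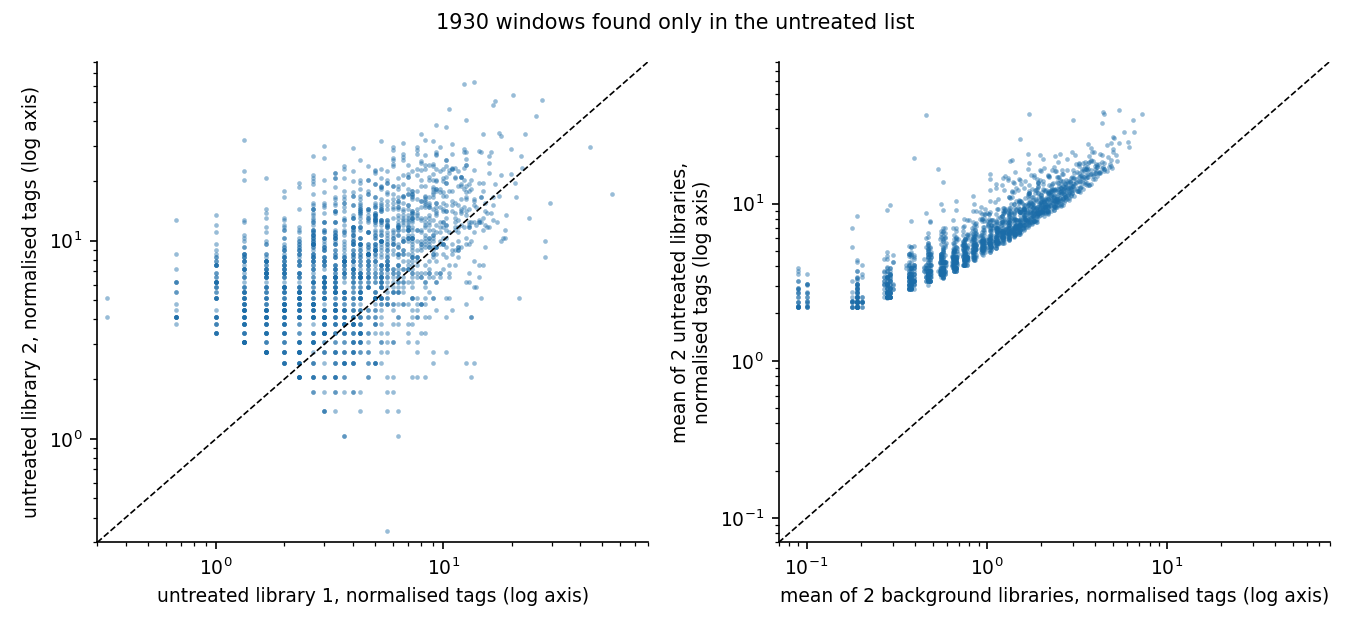
Normalised tags (scaled to a library of 10000000), on log axes, in the 1930 windows found only in the untreated list, with 1 point per window and the dashed line at equality. Left, untreated library 2 against library 1, with 1575 points above the line. Right, the mean of the untreated against the mean of the background libraries, leaving out 8 windows with 0 tags in both background libraries, with all points above the line.

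By annotation, promoter windows among the regions were the higher ones, at medians of 6.66 and 10.6 normalised tags in the 2 untreated libraries. Intronic windows had 3.99 and 7.56, and intergenic windows 3.66 and 6.87. Promoters were also higher in the background, at 2.02 and 1.61, against 1.01 and 1.07 in introns and 0.808 and 0.716 in intergenic DNA. In the other untreated windows promoters had 17.6 and 20.9 in cells and the same 2.02 and 1.61 in background.

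Over background the median difference was 1.99 on the scale of log2 (normalised tags + 0.5), with the 10th and 90th percentiles at 1.76 and 2.42. The other untreated windows had a median of 2.96 and percentiles of 2.02 and 4.49. In limma, with Benjamini-Hochberg adjustment over all windows of the list, 1879 of the 1930 (97.4%) had an adjusted p under 0.05, against 99.1% of all untreated windows. With a log2 above 2 required as well, 932 (48.3%) remained, against 87.7% of all. The list had been called on the same contrast, so nothing is read from these counts. Without 1 or the other background library, limma called 321 and 271.

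The regions sat near the authors' threshold. In the authors' deposited table their median adjusted p over background was 0.0282, against 0.000699 in the other untreated windows, and 1651 of them (85.5%) were above 0.01, against 21.2%. The median log2 fold change over background in the authors' deposited table was 2.64, against 3.63. Of the 8538 untreated windows with an adjusted p up to 0.0001 in the authors' deposited table, 6 (0.0703%) were found only in untreated cells, whereas 425 (38.2%) of the 1113 with an adjusted p between 0.04 and 0.05 were. With the untreated windows put in 10 equal bins by level, 696 of the 2623 windows in bin 1, the lowest (26.5%), 425 in bin 2 (16.2%) and 0 in bin 10, above 50.3 normalised tags, were among the regions. The windows found only with TNFa, BMP4 or both were also near the threshold, with a median adjusted p in the authors' deposited table of 0.0278, 0.0303 and 0.0208.

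**Figure D3:**
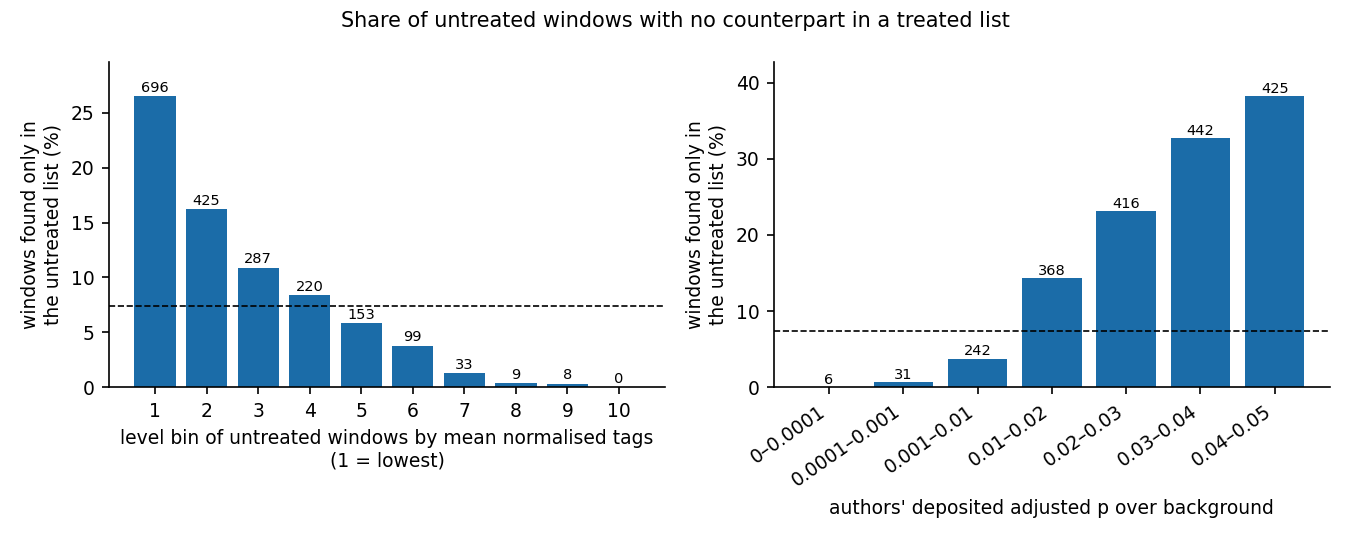
Percent of untreated windows found only in the untreated list, in 10 bins of the mean level (left, lowest first) and by the adjusted p over background in the authors' deposited table (right). Numbers above the bars count the windows found only in untreated cells, and the dashed line is the 7.36% over the whole list. The share falls from 26.5% in the lowest bin to 0 in the highest.

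The annotation profile varied with level. In bin 1 of the level, promoters made up 4.17% of the regions and 10.3% of the other windows, and in bin 2 they made up 11.1% and 14.1%. The shares were 15% and 22.9% in bin 3, then 22.7% and 29.3%, 22.2% and 34%, and 32.3% and 37.1% in bins 4 to 6. In each of these 6 bins the promoter share was lower among the regions than among other windows, by less than the 12.6% against 33.5% over the whole list. In bins 7 to 9, with 33, 9 and 8 regions, the shares were 18.2% and 40.7%, 0% and 44.5%, and 25% and 44.4%, and the gap in the first 2 of these was wider than over the whole list. The median distance to a start in bin 1 was 30362 bp for the regions and 28182 bp for the others, and in bin 2 18710 and 21842 bp, so at equal level distance had no constant order.

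Their surroundings were not empty in treated cells. The nearest window of a treated list lay at a median of 12036 bp, and 871 of the 1930 regions (45.1%) had one within 10000 bp. For TNFa alone the count was 742 (38.4%), for BMP4 781 (40.5%) and for both factors 702 (36.4%). Another untreated window, with a counterpart in treated cells, lay within 10000 bp of 784 regions (40.6%). Just inside the rule, 87 regions had their nearest treated window beyond 500 and up to 750 bp away, with medians of 5.32 and 7.90 normalised tags. Just outside it, 221 untreated windows beyond 250 and up to 500 bp away had medians of 13.0 and 7.90.

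The windows with the highest values in both untreated libraries are given with every library, in tags and, for the first of them, in normalised tags, followed by what the other lists hold nearby. Tags of different lists were recovered list by list and scaled to each library's total. The highest lower value was at Morf4l2, which encodes an MRG domain protein of histone acetyltransferase complexes. Its window (chrX:136741995-136742119) lies at -448 bp from the start and had 133 and 86 tags in the untreated libraries (44.3 and 29.5 normalised) and 9 and 9 in background (1.82 and 1.61). The log2 over background was 4.05 (SE 0.52). A treated window began 530 bp away, just past the limit. There the TNFa libraries had 61.3 and 68.9 normalised tags (window 610 bp away), the BMP4 libraries 16.1 and 140.0 and the libraries with both factors 17.0 and 74.8, and a neighbouring untreated window had 53.6 and 143. In these neighbours the libraries of the untreated, the BMP4 and the combined group differed widely between themselves and those of the TNFa group did not. Each treated list held a window near the Morf4l2 start.

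The second was Ppp1r1b (chr11:98354059-98354183, intron), which encodes DARPP-32, a phosphatase inhibitor. It had 82 and 149 tags (27.3 and 51.2 normalised) and 27 and 30 in background. The promoter window of Taok1, a kinase upstream of stress-activated MAP kinases, had 25.6 and 42.6 normalised tags and 6.46 and 6.44 in background. Its nearest treated window was 21734 bp away. Sept9, a septin of the cytoskeleton, had an intronic window (chr11:117296770-117296894) with 69 and 100 tags and 29 and 41 in background. Bok, a BCL2 family protein that promotes cell death, had an exonic window (chr1:93686532-93686656) with 67 and 68 tags and 29 and 36 in background, 1048 bp from a treated window. Mllt1, a reader of acylated histones, had 66 and 78 tags in an intron (chr17:56958157-56958281), with 29 and 28 in background. All of these had a high background: Ppp1r1b was 2.68 over it on the log2 scale (SE 0.51), Taok1 2.27 (SE 0.49), Sept9 2.02 (SE 0.49), Bok 1.81 (SE 0.48) and Mllt1 2.06 (SE 0.49).

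Dlx4, a homeobox gene of the distal-less family, was the nearest gene of 2 of the regions and of no window in any treated list. The first (chr11:95158039-95158163) lies in an exon of a non-coding transcript, at -12300 bp from the Dlx4 start. It had 61 and 157 tags and 41 and 35 in background. The second (chr11:95165985-95166109) is intergenic, at -20246 bp, and had 53 and 101 tags and 28 and 25 in background. Both were about as far over background, at 2.13 (SE 0.57) and 2.19 (SE 0.54). The nearest treated windows were 31353 and 39299 bp away.

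Of the 12 windows with the highest lower value, 7 were on chromosome 11 and 8 had 20 or more tags in both background libraries. That level of background was found in 43 of the 1930 regions (2.23%) and in 3.29% of the other untreated windows. The rest of the 12 were Plxdc1 (60 and 63 tags, background 12 and 15), which encodes a plexin domain membrane protein, Prss38 (60 and 84, background 22 and 30), a serine protease gene, and Med15 (62 and 57, background 14 and 11), a Mediator subunit. Tns1, which encodes the focal adhesion protein tensin, had 54 and 62 (background 22 and 28), and Metrnl, a secreted meteorin-like protein, had 54 and 98 (background 9 and 7). Med15, a promoter window, had a treated window 532 bp away. Chromosome 11 as a whole held 153 regions, or 7.07% of its 2163 untreated windows, near the 7.36% over the genome, and the highest share on an assembled chromosome was 10% (95 of 946) on chromosome 16.

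The windows that stood furthest above background, by the lower untreated against the higher background library, were mostly next to treated windows. The first was intergenic, 54019 bp from Tlr1, a Toll-like receptor gene (chr5:64878618-64878742). It had 167 and 50 tags (55.6 and 17.2 normalised) and 1 and 4 in background, a log2 difference of 5.09 (SE 0.67). A window 520 bp away was in all 3 treated lists, at 16.4 and 50.2 normalised tags in the TNFa libraries, 36.9 and 121 in those given BMP4 and 24.4 and 15.9 after the combined treatment. Next came Morf4l2, described above, and an intron of 4930447J18Rik with 47 and 34 tags (background 3 and 3), 600 bp from a treated window. The promoter of 9130024F11Rik had 42 and 43 tags (background 5 and 6), 518 bp away, and an intergenic window assigned to 1810026B05Rik had 29 and 86 (background 3 and 1), 508 bp away. Btg1, an antiproliferative gene, had 39 and 52 tags in its second exon (chr10:96618290-96618414; background 5 and 6), 1475 bp away. The last were 4930429F11Rik, with 16 and 33 tags (background 1 and 1) and a treated window at 533 bp, and Metrnl. Thus 6 of these 8 windows had a treated window within 1000 bp.

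**Figure D4:**
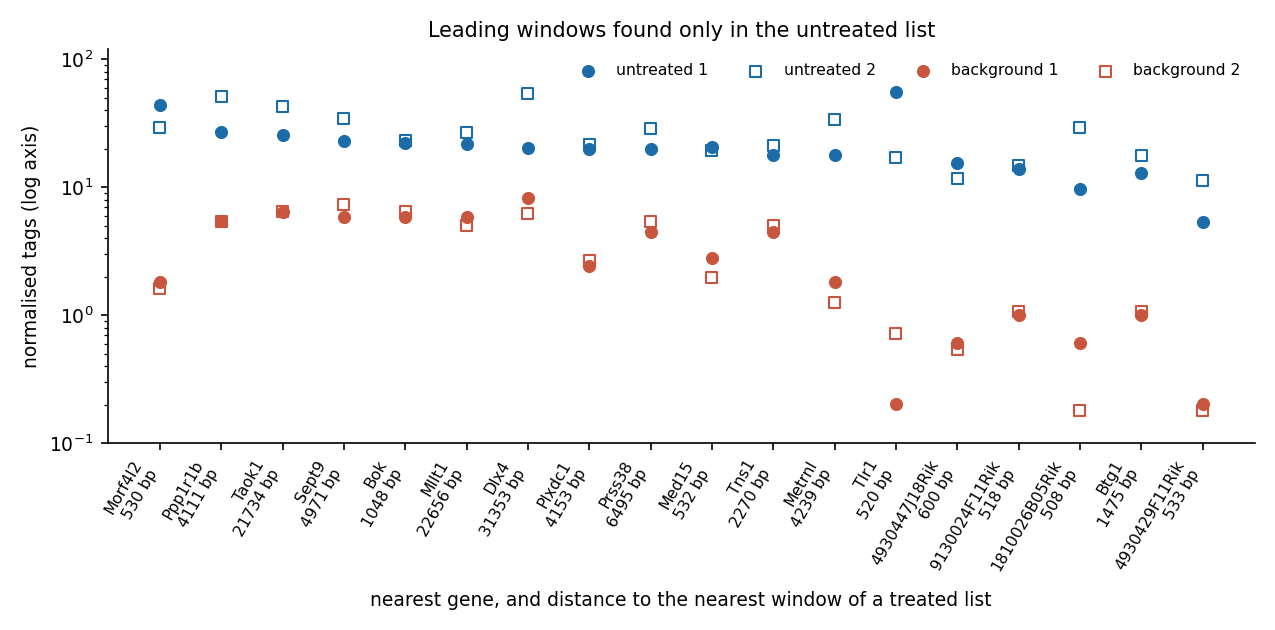
Normalised tags (log axis) in the 2 untreated (blue) and 2 background libraries (red) for the 18 leading windows, named by nearest gene with the distance to the nearest window of a treated list. Circles are library 1 and squares library 2. In each window both untreated values lie above both background values, and windows from Ppp1r1b to Dlx4 have a higher background than those from Tlr1 on.

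Nearness to treated windows was more frequent among the stronger calls. An adjusted p up to 0.001 in the authors' deposited table was held by 37 of the regions, and 15 of these 37 had a treated window within 1000 bp, while 8 were more than 10000 bp from any. Among the 6 with an adjusted p up to 0.0001 in the authors' deposited table, 4 had a treated window within 1000 bp and 0 were beyond 10000 bp. Over all 1930 regions, 4.51% had one within 750 bp and a further 2.64% within 1000 bp. Of the 37, 22 were in introns, 10 between genes, 4 at promoters and 1 in an exon. They included windows of the growth factor receptor Fgfr1, the collagen gene Col6a3, the syndecan gene Sdc4 and the cell cycle kinase gene Wee1, the last pair named after their values were seen.

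Among promoters, the next after Morf4l2, Taok1 and Med15 was Crtc1, a co-activator of CREB, with 51 and 56 tags and 22 and 25 in background. Rcor2, a CoREST corepressor, had 63 and 48 (background 30 and 25), and Mtch1, a mitochondrial outer membrane protein gene, 49 and 81 (background 29 and 23). Gprin3 had 45 and 52 (background 17 and 23), and Snrnp25, which encodes a protein of the minor spliceosome, 44 and 48 (background 17 and 26). Cemip2, a cell surface hyaluronidase gene, had 44 and 81 (background 21 and 19), with a treated window 790 bp away. Ephb6, an Eph receptor without kinase activity, had 44 and 48 (background 28 and 16), and its nearest treated window was 659438 bp away. In these 7 promoters the background libraries had 16 to 30 tags, and the log2 over background was between 1.74 (Rcor2) and 2.27 (Cemip2).

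The regions were spread over 1678 genes, of which 1468 had 1, 178 had 2 and 32 had 3 or more, and 5 regions had no gene name. Most of these genes kept windows elsewhere. In 1106 (65.9%) each of the 3 treated lists held at least 1 window assigned to the gene, and in 1236 (73.7%) the untreated list held a further window with a counterpart. In 363 genes (21.6%), with 388 regions, no treated list held any window. The same shares over all genes with an untreated window were not computed, so no excess is read from these. The rule bears on the last share, as it takes windows without a treated counterpart.

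Fggy, which encodes a carbohydrate kinase, had the most, with 5 of its 12 untreated windows. They had 5 to 9 tags in untreated library 1 and 6 to 43 in library 2, and the gene had 6, 7 and 6 windows in the TNFa, BMP4 and combined lists. Nhsl1 had 4 of 11, Col6a3, a chain of collagen VI, 4 of 13, and Csrp1, a LIM domain protein gene, 4 of 14. At Col6a3 the strongest was in the first intron (chr1:90838360-90838484), with 56 and 30 tags and 6 and 7 in background, 3.05 over background on the log2 scale (SE 0.55). Its promoter window had 12 and 51 tags and 16 and 9 in background, which in the first of each is 3.99 normalised tags in untreated cells and 3.23 in background. Hipk2, a kinase gene, had 3 regions and 5 windows with TNFa, more than the 4 in untreated cells.

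Among genes with no treated window at all, Cdrt4os1 and Grin1os, opposite-strand transcripts by name, had 3 regions each, with 8 to 25 tags in library 1. Those with 2 and the highest levels, after Dlx4, were Rassf7, Tspan15 and Tfrc. Rassf7 had a promoter window with 35 and 27 tags (background 10 and 11) and an intronic one with 38 and 70 (background 19 and 20). Tspan15, which encodes a tetraspanin partner of the protease ADAM10, had its promoter at 37 and 59 (background 19 and 19) and an intronic window at 28 and 53 (background 5 and 10). Tfrc, the transferrin receptor gene and on the list of housekeeping genes, had its promoter at 27 and 51 (background 18 and 10). Absence of a listed window is a missed threshold in pooled libraries and not a measured 0.

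Few regions fell to the lists of BMP and SMAD genes and of NF-kB genes. Of 103 untreated windows at BMP and SMAD genes, 2 (1.94%) were among the regions, and of 96 at NF-kB genes 3 (3.12%), against 7.36% overall. The 2 were Nog, which encodes a secreted BMP antagonist, with 4 and 15 tags in an intergenic window and 2 and 3 in background, and Bmpr1b, a type I BMP receptor gene, with 5 and 14 (background 1 and 3). The 3 were Lif, a cytokine gene, with 29 and 28 tags (background 10 and 15), Cd44, the hyaluronan receptor gene, with 14 and 36 (background 7 and 10), and Nfkbiz, which encodes a nuclear IkB protein, with 11 and 41 (background 8 and 8). None of these 5 was a promoter. These counts are small, and the share of regions depends on level, as described above. All windows at BMP and SMAD genes had a median log2 over background of 2.79, and those at NF-kB genes 3.08. Over all untreated windows it was 2.86, and the part of level in these shares was not tested. The lists leave out further genes of these pathways, among them Gdf7, Tank, Irak3 and Traf4, with 1 region each, and Il1r1, with 2. An Il1r1 region was a promoter window, with 27 and 59 tags (background 13 and 19). AP-1 genes are given below.

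Osteoblast genes had 3 regions in 106 windows (2.83%). Ogn, whose promoter sequence is shown above, had 11 and 11 tags and 2 and 4 in background, a log2 of 2.01 (SE 0.55), with the nearest treated window 23381 bp away. Col1a1, the main collagen gene of bone, had a window at -25125 bp from the start with 22 and 52 (background 18 and 12), while its promoter window had counterparts in treated cells. Dlx3, a homeobox gene active in osteoblasts, had 17 and 24 (background 6 and 8). Matrix genes had 8 in 171 (4.68%), and AP-1 and immediate early genes 7 in 137 (5.11%). The cell death list had 1 in 56 (1.79%), Bbc3, with 14 and 42 tags and 12 and 11 in background. Bok, described above, is not on that list. Of the AP-1 and immediate early genes, Klf2 was the furthest above background, with 21 and 39 (background 3 and 9), 702 bp from a treated window. The phosphatase gene Dusp1 had 20 and 49 (background 17 and 14), and Egr2 27 and 50 (background 16 and 22).

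The largest share among the signalling lists was that of the FGF, PDGF and ERK list, with 8 regions in 62 windows (12.9%). All 62 had a median log2 over background of 2.58, against 2.86 over all untreated windows. The part of level in the share was not tested. Fgfr1 had an intronic window (chr8:25536077-25536201) with 56 and 33 tags and 8 and 5 in background, 659 bp from a treated window, and a promoter window with 30 and 41 (background 14 and 20). Pdgfa, a growth factor gene, had 22 and 49 (background 16 and 12), and windows of Braf and Fgfr2 were also among them. Notch and hedgehog genes had 6 in 61 (9.84%), among them the co-repressor gene Sufu, with 15 and 56 (background 13 and 6), and Heyl, with 23 and 24 (background 8 and 9). The TGF-beta list had 6 in 89 (6.74%), the Wnt list 7 in 123 (5.69%), the Hippo list 6 in 84 (7.14%) and cytoskeletal genes 9 in 137 (6.57%). Of the Hippo windows, 3 were at Vgll4, a TEAD cofactor gene. Myh9, the non-muscle myosin heavy chain gene, had the highest cytoskeletal window, with 50 and 141 tags (background 23 and 23).

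Lists of other lineages had few untreated windows. Adipocyte genes had 5 regions in 25 windows (20%): Zfp423, a preadipocyte zinc finger gene, with 38 and 18 tags in a first window (background 8 and 9) and 18 and 55 in a second (background 14 and 12), Adipor2 with 18 and 45 (background 10 and 14), Pparg, the main adipocyte regulator, with 10 and 21 (background 5 and 3), and Cd36. Chondrocyte genes had 4 in 38 (10.5%), all in introns, with Col11a2 at 50 and 48 (background 21 and 26). Muscle and endothelial genes had 2 in 20 (10%), haematopoietic genes 2 in 25 (8%, both at Runx1), neuronal genes 1 in 15 (6.67%) and housekeeping genes 4 in 56 (7.14%). The median log2 over background of the members of each of the 18 lists, from 1.71 to 2.29, was below the median of all untreated windows of the same list, from 2.09 to 3.29.

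**Figure D5:**
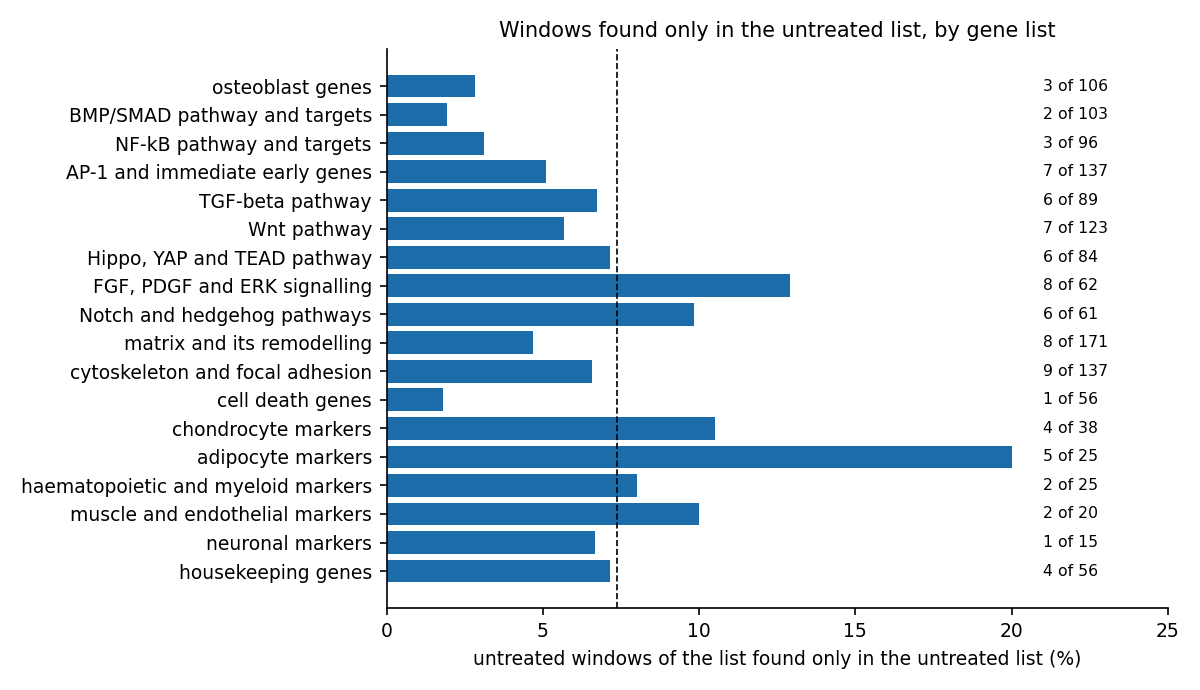
Percent of the untreated windows assigned to each of 18 gene lists that were found only in the untreated list, with counts at the right and the dashed line at the 7.36% over all untreated windows. Adipocyte markers (5 of 25) and the FGF, PDGF and ERK list (8 of 62) are the furthest above the line, and the cell death list (1 of 56) and the BMP/SMAD list (2 of 103) the furthest below.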

How the data were processed

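ATAC-seq libraries of MC3T3-E1 cells (4 groups of 2) and 2 libraries of sonicated DNA were used. The submitters' processing notes name HOMER 4.11, deepTools 3.5.1, Picard 2.25.1, Bowtie2 2.5.1, Trimmomatic 0.39 and the build mm10. Of a shift of reads for the transposase, nothing is given in the sources used here. Windows were called by the authors with HOMER (factor style, DESeq2, adjusted p under 0.05, log2 fold at least 1, per the file headers), pooling the replicates of a group against both background libraries, so a list has no replicate. The deposited p-values and log2 fold changes over background are the authors' own. The values per library carry the name of tag counts in the headers, but what the authors deposited is on the regularised log2 scale of DESeq2.

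The tag counts behind these log2 values were recovered by solving the regularisation, which took 3 fitted constants in each list. In all, 99.94% (untreated), 99.99% (TNFa), 99.31% (BMP4) and 100% (both) of values came within 0.1 of a whole number, and 16.4% to 19% did with the constants moved by 5%. In windows of identical position, 87930 of 87930 recovered background counts were equal between lists, while 2 were as deposited. The solution and the limma fit were tested on simulated data.

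Windows were matched by start within 500 bp (Python 3.11.15, pandas 2.3.3, numpy 2.4.6, scipy 1.17.1). Normalised tags are tags scaled to a library total of 10000000. Untreated and background libraries were compared with limma 3.58.1 (R 4.3.3) on log2 (normalised tags + 0.5), with a mean-variance trend, over all 26230 windows without a filter, two-sided, with Benjamini-Hochberg adjustment. Named windows are the 12 with the highest lower untreated value, the 8 with the largest gap to background, the 10 highest promoters, up to 4 per gene list, and those of the 10 genes with most regions. Windows of genes absent from every treated list were named after their values were seen. Annotation and nearest gene are the authors'. The regions, the 18 gene lists and the 13 motifs were chosen with earlier results of these data known, and the NF-kB and NRF1 patterns were widened to consensus forms after a first count. The shares of library tags in the regions have 95% Wilson intervals. Shares of windows are printed without intervals.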

Additional observations from a re-analysis of the deposited data

How the results depend on the processing

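Of 66 values recomputed under other settings for 8 results, 51 stayed close and 15 moved. Close meant within a fixed fold limit for counts of windows and calls, and within a 95% interval over windows for shares and distance. For levels and the log2 over background it meant within the standard deviation between the 2 untreated libraries. The 4 other match distances gave 1668 to 2282 windows and moved no share, distance or level beyond its limit. With each list shortened to the 23288 windows of the shortest by adjusted p, 1082 windows were found only in untreated cells, 923 of them among the 1930, with 10.5% promoters. With untreated windows held to a deposited adjusted p under 0.001, there were 37, with 10.8% promoters, 27% intergenic, a median distance of 7160 bp, 12.6 and 13.7 normalised tags in the untreated libraries and a median log2 over background of 3.13. Absence from both lists that include TNFa, whatever the BMP4 list held, was met by 4217 windows. A pseudocount of 2 lowered the median log2 to 1.33. A log2 above 2 left 932 calls, and a mean of at least 30 tags left 381 calls of 399 windows tested; the fewer windows tested account for the last.

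Leaving out each library in turn gave 271 to 1927 calls and a median log2 of 1.65 to 2.45. The lowest, 271 and 321, came without background library 2 and 1, with the lone background library assumed to vary like the untreated ones. The cause was not tested. With the replicate number as a block, limma called 1930 windows, against 1879, at the same median log2 of 1.99. The numbers are not known to pair libraries, and the deviations of untreated and background libraries of the same number correlated at 0.0107 across 26230 windows.

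A median of 13 and 22 tags per window leaves wide counting error, and the values of the treated libraries are not given in windows their own lists lack.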

Other observations

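Repeat labels held a larger part of the windows found only in untreated cells than of the others. Of the 1930 windows, 253 (13.1%) were annotated to a repeat, against 7.92% of the other untreated windows. Each window carries 1 detailed label. Promoters made up 12.6% of the 1930 windows and 33.5% of the others, and their part in the repeat shares was not tested. LTR elements, the remains of retroviruses, made up 107 (5.54%, against 2.98%), SINEs 58 (3.01%, against 1.88%) and LINEs 55 (2.85%, against 1.7%). Windows found only in the other lists were alike in this, of which repeats held 12.6% (TNFa), 14.9% (BMP4) and 15.5% (both factors). In the lowest of 10 bins by level, LTR elements held 7.76% of the untreated-only and 6.12% of the other windows, and in bin 3 they held 4.53% and 5.14%, so the order was not the same at each level.

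By repeat name, the internal part of the retrovirus-like element MMVL30 had 7 of its 15 untreated windows among those found only in untreated cells (46.7%), RMER1B 7 of 27 (25.9%), the DNA transposon MER20 4 of 13 (30.8%) and the SINE PB1D9 4 of 8 (50%). Over all repeats the share was 253 of 2177 (11.6%), and over all untreated windows 7.36%. These 4 names had the highest shares among the 14 with at least 4 such windows and were picked after their values were seen. The other names ran from ID_B1 with 4 of 56 (7.14%) to B3A with 4 of 20 (20%). Satellite and tRNA annotations, with 8 and 54 windows in the untreated list, had 0 and 0. The placing of reads that match several copies of a repeat is not recorded in the labels, and its part in these counts was not tested.

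Non-coding RNA genes were the nearest gene of 284 windows found only in untreated cells (14.7%, against 12.6% of the others), protein-coding genes of 1619 (83.9%, against 86.5%) and pseudogenes of 19 (0.984%, against 0.584%).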
